A study of Homo sapiens with 8 samples.

Results

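Open chromatin was examined at the loci of YAP1, WWTR1 (which encodes TAZ), TEAD1, CYR61 and CTGF in H1650, an established human non-small cell lung cancer line. The assay was ATAC-seq, in which a transposase cuts accessible DNA and tags the ends for sequencing, and there were 8 libraries in 4 groups of 2 replicates. The siMena11a cells received a mix of siRNAs matching exon 11a of ENAH at 20 nmol/L, and the siMena cells a pool against all hMENA, the actin regulator that ENAH encodes, at the same dose. The siControl cells received a non-targeting pool at 20 nmol/L, and untreated cells received no siRNA. All groups are the same line, the knockdowns were transient, and siRNA acts on mRNA, so these data hold no check of the knockdown.

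The members are open regions inside 5 windows of build hg19, given in Mb. The windows were 101.95 to 102.13 on chromosome 11 for YAP1, 149.2 to 149.49 on chromosome 3 for WWTR1, 12.66 to 13 on chromosome 11 for TEAD1, 86.0 to 86.1 on chromosome 1 for CYR61 and 132.2 to 132.34 on chromosome 6 for CTGF. The peaks of the 8 deposited lists were merged wherever they overlapped or touched, which gave 46665 regions, and 41 of them overlapped these windows. The YAP1 window held 12, WWTR1 12, TEAD1 9, CYR61 6 and CTGF 2. Regions are numbered along the chromosome within each window. In RefSeq (GRCh38.p14) the genes differ in length, with 122978 bp for YAP1, 207554 bp for WWTR1 and 270317 bp for TEAD1, against 3190 bp for CYR61 and 3197 bp for CTGF. The nearest protein-coding genes there are CFAP300 and BIRC3 around YAP1, TM4SF4 and COMMD2 around WWTR1, PARVA and RASSF10 around TEAD1, DDAH1 and ZNHIT6 around CYR61, and ENPP1 and MOXD1 around CTGF. No annotation of hg19 was used here, so regions are placed in a window and not in a promoter, exon or intron, and a region may belong to a neighbouring gene.

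YAP and TAZ are transcriptional coactivators that carry actin tension to the nucleus. When the actin cytoskeleton is under tension they escape phosphorylation by the LATS kinases of the Hippo pathway, enter the nucleus and bind TEAD factors, which supply the DNA contact. CYR61 (now CCN1) and CTGF (now CCN2) encode secreted matricellular proteins and are the customary readouts of this activity.

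TEAD factors bind GGAATG and its reverse complement CATTCC. Of the 5 genes, 3 had an entry in the RefSeq promoter table (YAP1, WWTR1 and CTGF), and the 250 bases before the start were searched on both strands. CTGF held 3 copies, all reading GGAATG, whose first bases lay 169, 104 and 95 bases before the start. YAP1 held 1, beginning 162 bases before the start, and both WWTR1 entries held 0. Of all 35116 promoters in the table, 11.9% held at least 1 copy and 0.0797% held 3 or more. The sequences that hold a copy are printed 5′ to 3′ on the gene's strand from RefSeq, build GRCh38.p14, with the motif in capitals. A match describes the letters only and was not tied to a peak, since the peaks are on hg19.
CTGF (chromosome 6, minus strand): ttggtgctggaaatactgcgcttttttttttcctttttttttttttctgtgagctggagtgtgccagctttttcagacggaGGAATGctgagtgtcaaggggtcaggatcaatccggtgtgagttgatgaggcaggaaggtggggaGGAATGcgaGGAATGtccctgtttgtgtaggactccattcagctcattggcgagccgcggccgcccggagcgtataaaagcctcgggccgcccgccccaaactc
YAP1 (chromosome 11, plus strand): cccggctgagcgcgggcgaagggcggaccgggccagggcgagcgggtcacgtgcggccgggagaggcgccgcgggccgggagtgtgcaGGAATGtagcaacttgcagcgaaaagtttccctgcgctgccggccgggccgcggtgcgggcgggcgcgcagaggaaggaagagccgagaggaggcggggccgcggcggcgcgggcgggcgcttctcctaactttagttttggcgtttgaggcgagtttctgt

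The lists differ greatly in length, and so does the number of these regions they can hold. The siMena11a, siMena, siControl and untreated libraries of replicate 1 listed 34825, 14110, 26446 and 33804 of all regions. Their replicate 2 counterparts listed 2764, 997, 5072 and 21660. Background over the genome, in tags per position, was 0.538 to 0.935 in replicate 1 and 1.09 to 2.88 in replicate 2, and the 3 shortest lists had the 3 highest backgrounds. Fold is the authors' ratio of the pileup at a summit to its local background, and it was lower in replicate 2. At the 542 regions listed in all 8 libraries its median was 8.99 to 11.5 in replicate 1 and 4.57 to 9.91 in replicate 2. Labels do not say whether replicates came from separate cultures, so spreads may be technical.

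Listing at the YAP/TAZ loci broadly went with the length of the lists, though not in exact order. Untreated replicate 2 held more of these regions than the longer siControl replicate 1 list. Untreated replicate 1 held more than the longer siMena11a replicate 1 list. Of the 41 regions, 28 were listed in siMena11a replicate 1, 10 in siMena replicate 1, 22 in siControl replicate 1 and 29 in untreated replicate 1. In the replicate 2 libraries the corresponding numbers were 2, 0, 6 and 23. The shares of all 46665 regions in the same order were 74.6%, 30.2%, 56.7% and 72.4% for replicate 1. For replicate 2 they were 5.92%, 2.14%, 10.9% and 46.4%. The 0 of 41 in siMena replicate 2 rests on 1 list and on regions that cluster in 5 windows. Its difference from the share of all regions was not tested. No region of the 5 windows was listed in all 8 libraries, against 1.16% of all regions. At least 5 libraries listed 10 of the 41 (24.4%), and 24.6% of all regions were listed that often. A single library listed 14 of the 41 (34.1%), beside 31.2% of all regions, and these 14 were divided between siMena11a replicate 1 (4), siControl replicate 1 (2), untreated replicate 1 (4) and untreated replicate 2 (4).

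**Figure D1:**
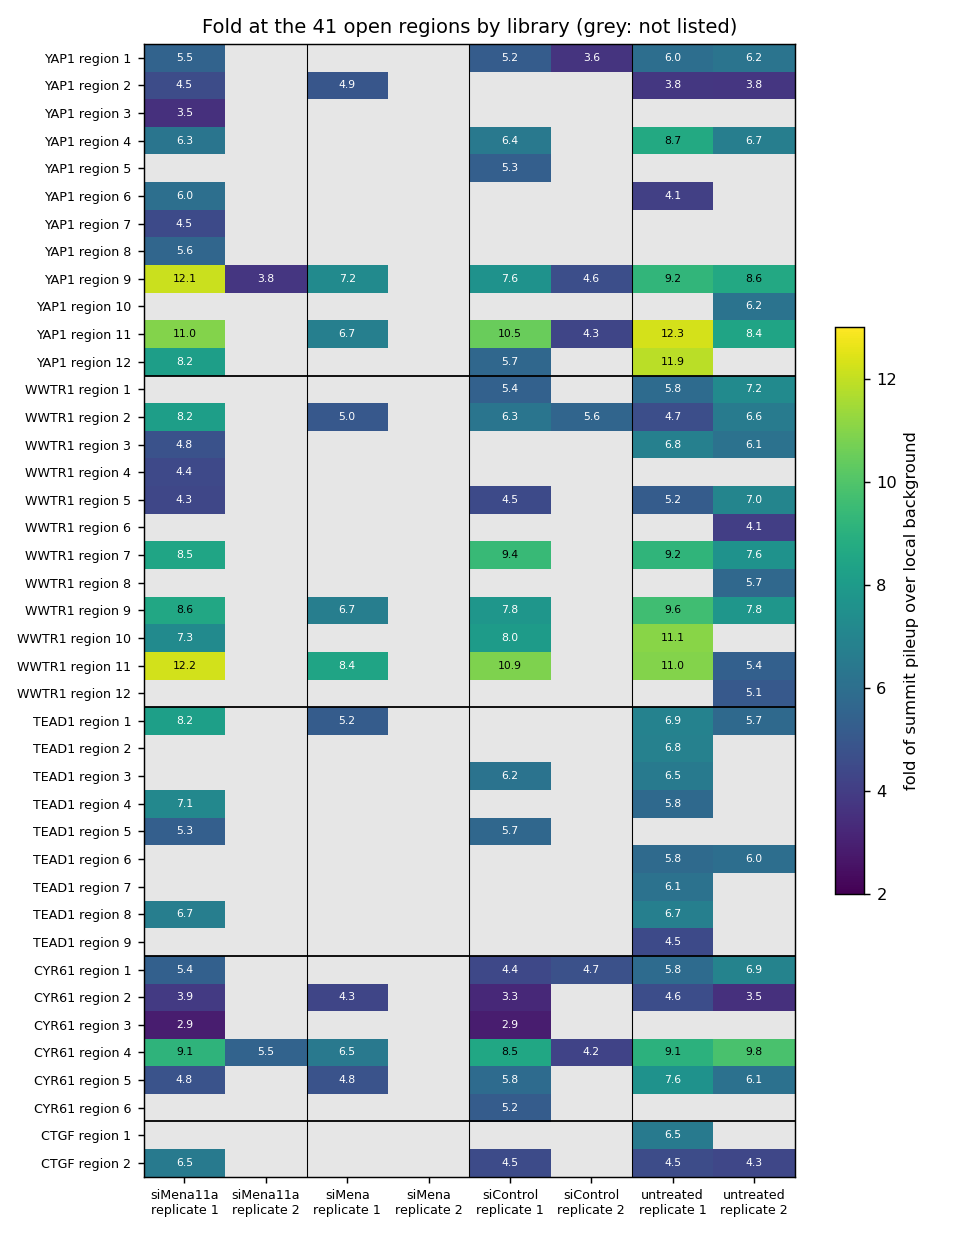
Fold of summit pileup over local background at each of the 41 regions (rows, grouped by window) in each library (columns, by group and replicate), with grey where a region was not listed. The siMena replicate 2 column is empty, and siMena11a replicate 2 holds 2 regions, CYR61 region 4 and YAP1 region 9.

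Open regions were denser than on average in every window but that of CTGF, and were spread unevenly among the genes. There were 6.67 per 100 kb in the YAP1 window, 4.14 for WWTR1, 2.65 for TEAD1, 6.0 for CYR61 and 1.43 for CTGF. Over the 5 windows together the density was 3.90 per 100 kb, and over chromosomes 1 to 22 and X it was 1.57. The latter was taken from the first to the last region of each chromosome, while the windows were set around genes. The densities are therefore not like for like. The median width was 390 bp, against 394 bp over all regions, and ran from 200 bp to 1018 bp. A merged region can only widen with each list that is added, and the median width was 212.5 bp for the 14 regions in 1 library, 419 bp for the 17 in 2 to 4 libraries and 678 bp for the 10 in at least 5. Of the 27 regions in at least 2 libraries, 14 had their highest summits within 100 bp of each other in every library that listed them.

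**Figure D2:**
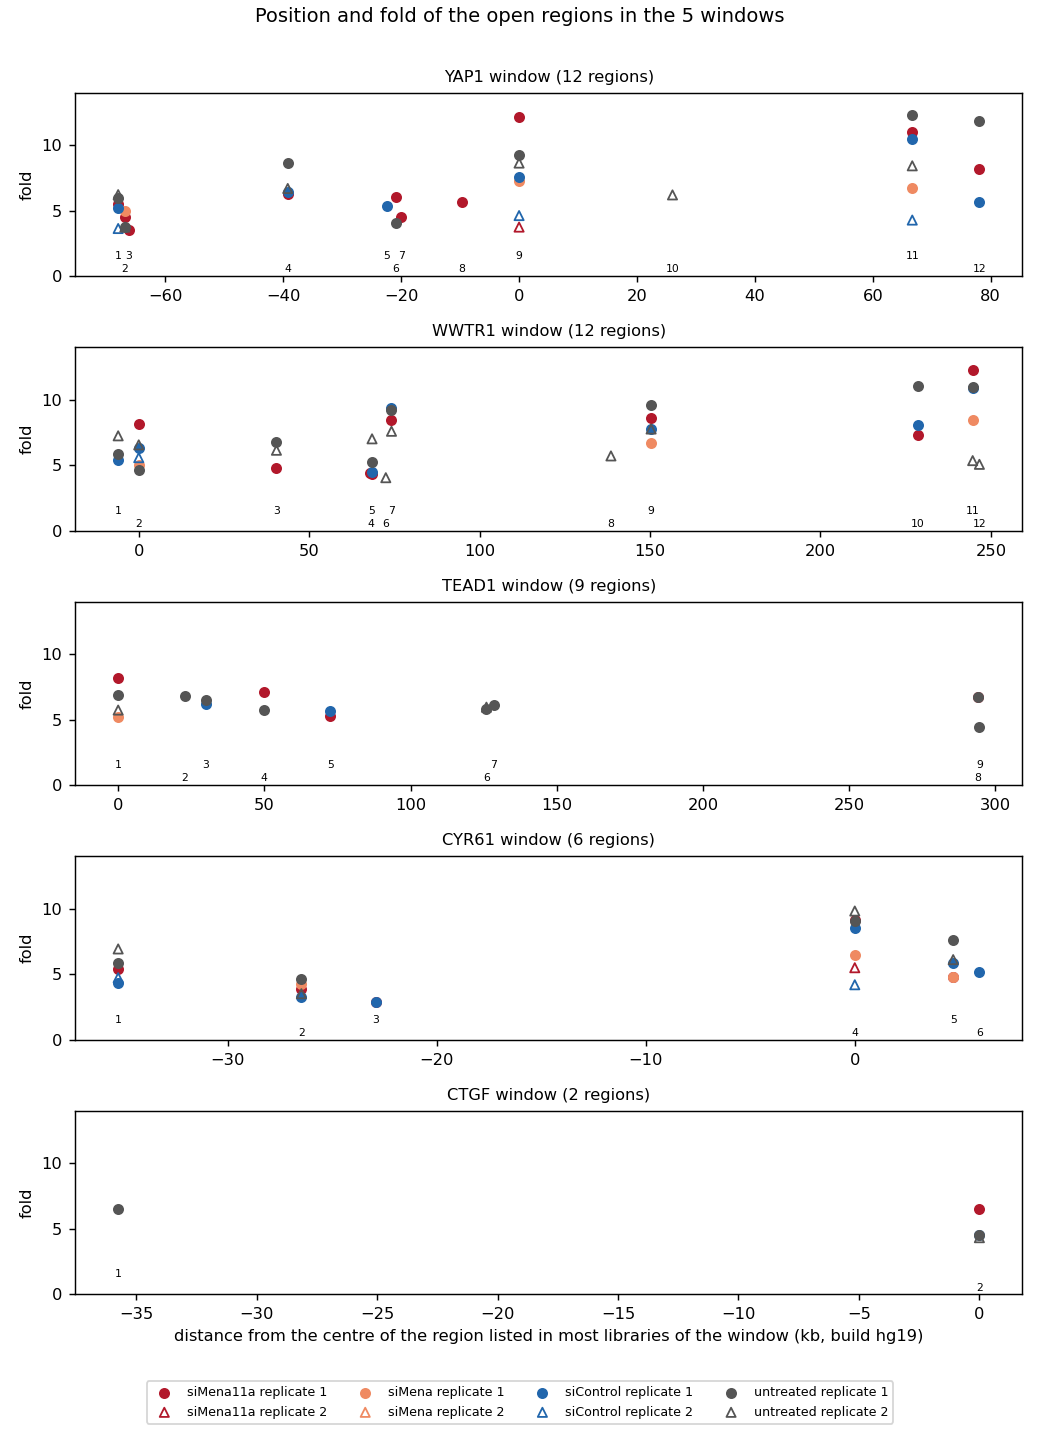
Fold (vertical axis) of each region against the distance in kb of its centre from that of the region listed in most libraries of the window (horizontal axis, 1 panel a window). Circles are replicate 1, open triangles replicate 2 and colours the groups, with region numbers along the bottom. YAP1 regions 1 to 3 lie together 66.2 to 68.0 kb before region 9, and the CTGF window has 2 regions 35.8 kb apart.

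YAP1, which encodes the coactivator YAP, had its most widely listed region at chr11:102048760-102049440. This region, YAP1 region 9, had folds of 12.1 and 3.75 in siMena11a replicates 1 and 2, 7.25 in siMena replicate 1, 7.59 and 4.63 in the siControl and 9.22 and 8.64 in the untreated libraries. The siMena11a values lay on both sides of all the others, and siMena replicate 2 alone did not list it. YAP1 region 11, at chr11:102115446-102116160, had folds of 11.0 in siMena11a replicate 1, 6.73 in siMena replicate 1, 10.5 and 4.29 in the siControl and 12.3 and 8.43 in the untreated libraries. Its fold in untreated replicate 1 was the highest of all the regions examined here, and by q-value it lay at the percentile 96.7 of that list. Both of these regions were lowest in replicate 2 of a transfected group.

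At the low-coordinate end of the YAP1 window 3 regions stood side by side, separated by gaps of 359 and 211 bp. The first, YAP1 region 1 at chr11:101980646-101981525, had folds of 5.51 in siMena11a replicate 1, 5.20 and 3.65 in the siControl and 5.98 and 6.23 in the untreated libraries, and neither siMena library listed it. Its neighbour YAP1 region 2, at chr11:101981885-101982548, had folds of 4.55 in siMena11a replicate 1, 4.95 in siMena replicate 1 and 3.78 and 3.75 in the untreated libraries, and neither siControl library listed it. These moderate folds stood on a local background that for region 1 was 6.70 times the genome-wide one in siMena11a replicate 1, 5.30 and 2.10 times in siControl replicates 1 and 2, and 7.47 and 4.39 times in untreated replicates 1 and 2. YAP1 region 4, at chr11:102009448-102010259, had folds of 6.29 in siMena11a replicate 1, 6.43 in siControl replicate 1 and 8.68 and 6.70 in the untreated libraries. The 8 YAP1 regions outside the 4 listed most widely had folds of 3.51 to 11.9, and 5 of the 12 were in 1 list only, 3 of them in siMena11a replicate 1.

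WWTR1, whose product TAZ is the paralogue of YAP, had its most widely listed region at chr3:149225221-149226058. This WWTR1 region 2 had folds of 8.16 in siMena11a replicate 1, 5.04 in siMena replicate 1, 6.29 and 5.58 in the siControl and 4.66 and 6.56 in the untreated libraries. The siControl and untreated ranges overlapped. WWTR1 region 9, at chr3:149375458-149376475, was the widest of the 41 and had folds of 8.61 in siMena11a replicate 1, 6.69 in siMena replicate 1, 7.80 in siControl replicate 1 and 9.62 and 7.77 in the untreated libraries. Its highest summits fell within 49 bp of each other in the 5 libraries.

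WWTR1 region 11, at chr3:149470044-149470585, had folds of 12.2 in siMena11a replicate 1, 8.42 in siMena replicate 1, 10.9 in siControl replicate 1 and 11.0 and 5.36 in the untreated libraries. Its fold in untreated replicate 2 was less than all its replicate 1 values, including that of siMena. WWTR1 region 7, at chr3:149299531-149300061, had folds of 8.47 in siMena11a replicate 1, 9.39 in siControl replicate 1 and 9.18 and 7.59 in the untreated libraries, and neither siMena library listed it. WWTR1 region 3, at chr3:149265789-149266286, had folds of 4.78 in siMena11a replicate 1 and 6.79 and 6.15 in the untreated libraries alone. The other 7 WWTR1 regions had folds between 4.05 and 11.1, and 3 of them were listed by untreated replicate 2 only.

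TEAD1, the DNA-binding partner, had the least widely listed regions of the 3 pathway components, with none in at least 5 libraries. Its leading region, TEAD1 region 1 at chr11:12695431-12696272, had folds of 8.21 in siMena11a replicate 1, 5.22 in siMena replicate 1 and 6.88 and 5.74 in the untreated libraries. Neither siControl library listed it, although the siControl lists were longer than the siMena ones of the same replicate. TEAD1 region 8, at chr11:12989676-12990041, had folds of 6.72 in siMena11a replicate 1 and 6.73 in untreated replicate 1. TEAD1 region 4, at chr11:12745390-12745723, had folds of 7.14 in siMena11a replicate 1 and 5.75 in untreated replicate 1. These 2 regions were in the same pair of lists, and their summits in the pair lay 9 and 6 bp apart.

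TEAD1 region 3, at chr11:12725642-12725955, had folds of 6.20 in siControl replicate 1 and 6.50 in untreated replicate 1. TEAD1 region 6, at chr11:12821662-12821942, had folds of 5.79 and 5.96 in the untreated libraries and was in no transfected list. Untreated replicate 1 listed 8 of the 9 TEAD1 regions, siMena11a replicate 1 listed 4, siControl replicate 1 listed 2 and siMena replicate 1 listed 1. Tags were few here: the summits of TEAD1 region 1 held 22 tags in siMena11a replicate 1, 8 in siMena replicate 1 and 14 and 11 in the untreated libraries.

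CYR61, a target gene, had 4 of its 6 regions in at least 5 libraries. CYR61 region 4, at chr1:86072690-86073364, had folds of 9.14 and 5.50 in siMena11a replicates 1 and 2, 6.46 in siMena replicate 1, 8.55 and 4.21 in the siControl and 9.07 and 9.83 in the untreated libraries. Both untreated values were above both siControl values, and the siMena11a range overlapped the siControl range. CYR61 region 5, at chr1:86077528-86077943, had folds of 4.82 in siMena11a replicate 1, 4.81 in siMena replicate 1, 5.85 in siControl replicate 1 and 7.62 and 6.12 in the untreated libraries. All 3 transfected libraries that listed it were lower than both untreated ones.

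CYR61 region 1, at chr1:86037604-86037951, had folds of 5.39 in siMena11a replicate 1, 4.37 and 4.74 in the siControl and 5.84 and 6.94 in the untreated libraries. It was 1 of 2 regions listed by both siControl libraries and by neither siMena library. CYR61 region 2, at chr1:86046209-86046880, had low folds, of 3.86 in siMena11a replicate 1, 4.29 in siMena replicate 1, 3.26 in siControl replicate 1 and 4.62 and 3.52 in the untreated libraries. The pileup there was not low: its summit held 53.9 times the genome-wide background in untreated replicate 1, while the local background was 10.2 times the genome-wide one. In siMena11a replicate 1 these multiples were 35.2 and 8.29, in siMena replicate 1 27.6 and 5.38, and in siControl replicate 1 22.5 and 6.14. The median local background over all listed regions was 2.18 times the genome-wide one in siMena11a replicate 1, 2.10 in siMena replicate 1, 2.10 in siControl replicate 1 and 2.27 in untreated replicate 1. Local background is taken over the surroundings of a peak and includes its own and its neighbours' tags.

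**Figure D3:**
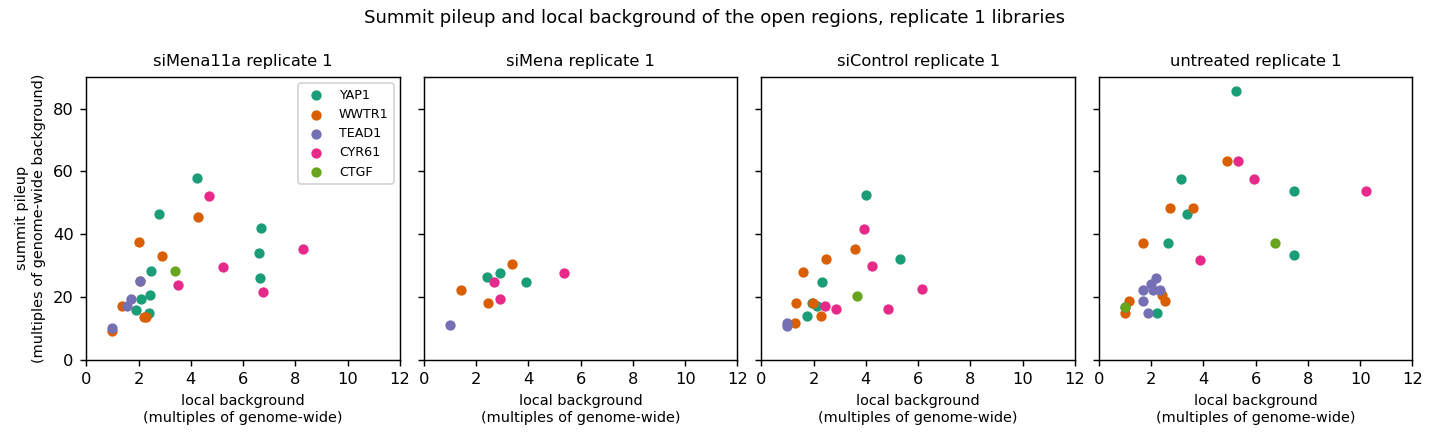
Summit pileup (vertical axis) against local background (horizontal axis) of the regions in the 4 replicate 1 libraries, both as multiples of the genome-wide background of the library, 1 point a region and colours by window. CYR61 region 2 lies farthest right in all 4 panels, at 5.38 to 10.2, and the TEAD1 regions lie at the low left.

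CTGF, the other target gene, had the fewest regions. CTGF region 2, at chr6:132271784-132272723, had folds of 6.50 in siMena11a replicate 1, 4.50 in siControl replicate 1 and 4.55 and 4.33 in the untreated libraries, and neither siMena library listed it. Its fold was highest in the siMena11a library, whose summit held 25 tags, against 19 in siControl replicate 1 and 20 and 17 in the untreated libraries. As multiples of the genome-wide background the same summits stood at 28.4 in siMena11a, 20.3 in siControl and 37.2 and 15.6 in untreated cells, so the order of siMena11a and untreated replicate 1 differed between the scales. The summits that gave these folds were up to 403 bp apart, the widest spread among the 41 regions. CTGF region 1, at chr6:132236387-132236617, was listed by untreated replicate 1 alone, with a fold of 6.50.

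Silencing of the 11a isoform was set against the non-targeting siRNA to ask whether these loci open or close with it. No region of the 5 windows was listed by both siMena11a libraries and neither siControl library, or the reverse. Over all regions 0.0279% were gained in this way and 0.0557% lost. Only the 2 members in both siMena11a libraries could be gained, and only the 6 in both siControl libraries could be lost. Among such regions over the genome 0.532% of 2445 were gained and 0.565% of 4604 were lost. The member counts moved with single libraries: without siMena11a replicate 2 there were 10 gained, and without siMena11a replicate 1 or siControl replicate 2 there were 4 lost. The share over all regions is not given for these settings. Within replicate 1, 18 regions were in both lists, and fold was higher with siMena11a at 11 of them, with a median log2 ratio of 0.09, while 65.5% of the 23530 regions shared by these lists were higher and their median was 0.13. On summit tags over the genome-wide background 14 of the 18 were higher with siMena11a, with a median of 0.38, and the median over all shared regions was 0.33. YAP1 region 9 had the highest ratio, 0.68 on the log2 scale, followed by CTGF region 2 at 0.53 and YAP1 region 12 at 0.53. CYR61 region 5 had the lowest, at -0.28. In replicate 1 siMena11a also listed 10 regions that siControl did not, and siControl 4 that siMena11a did not, and in replicate 2 these numbers were 0 and 4. Over all regions the same lists were unequal in the same directions. In replicate 1, 11295 were in siMena11a only and 2916 in siControl only, and in replicate 2 these numbers were 479 and 2787.

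Only CYR61 region 4 and YAP1 region 9 were listed in all 4 libraries of this comparison. At CYR61 region 4 the mean log2 fold was 2.83 ± 0.52 with siMena11a and 2.58 ± 0.72 with siControl (SD, n = 2 each), a difference of 0.24 (two-sided exact permutation p = 0.667). Its ratio was above 0 in both replicates, 0.10 in replicate 1 and 0.39 in replicate 2. At YAP1 region 9 the means were 2.76 ± 1.20 with siMena11a and 2.57 ± 0.50 with siControl, a difference of 0.19 (two-sided exact permutation p = 1.0), and its ratio was 0.68 in replicate 1 and -0.30 in replicate 2. At both regions the siMena11a and siControl folds overlapped, while both siMena11a folds were lower at 1.69% and higher at 0.872% of the 2065 regions listed in all 4. Both differences were smaller than the SD of either group, which takes no account of replicate number, and 0.33 is the smallest two-sided exact p that groups of 2 allow. When each fold was divided by the median fold of its library at the 542 common regions, both siMena11a values of CYR61 region 4 exceeded both siControl values, as they did at 13.3% of the 2065. Both were lower at 9.15% of the 2065 and at neither of the 2 regions named.

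Silencing of all hMENA was set against the same siControl libraries. No region was gained, beside 0.00214% of all regions, and 2 were lost, CYR61 region 1 and YAP1 region 1, beside 1.03% of all regions. A gain was not possible, since siMena replicate 2 listed 0 of the 41. Only the 6 regions that both siControl libraries listed could be lost, and of the 4604 such regions over the genome 10.4% were lost. The member count was 6 without siMena replicate 1 and 14 without siControl replicate 2, settings for which no share over all regions is given. CYR61 region 1 and YAP1 region 1 were both listed in siMena11a replicate 1, with folds of 5.39 and 5.51. Within replicate 1 fold was lower with siMena at 7 of the 8 regions in both lists, with a median log2 ratio of -0.30, and over all 13266 shared regions 19.0% were higher with siMena and the median was -0.29. YAP1 region 11 had the lowest ratio, at -0.64, and CYR61 region 2 was the 1 region that was higher, at 0.39. On folds divided by the library median 3 of the 8 were higher with siMena. In replicate 2 the siMena list held none of the 6 regions of the siControl list, so no ratio was available, and both siMena lists were the shorter of their pair. The part of list length in these counts was not tested.

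The effect of transfection with non-targeting siRNA was read from siControl and untreated cells. No region was gained, beside 0.12% of all regions, and 4 were lost, beside 3.65% of all regions. Only the 6 regions in both siControl libraries could be gained, and of 4604 such regions over the genome 1.22% were gained. The lost regions were TEAD1 region 1, TEAD1 region 6, YAP1 region 2 and WWTR1 region 3. They came from the 19 regions that both untreated libraries listed, and over the genome 9.80% of 17363 such regions were lost. The member count was 13 without siControl replicate 1, 8 without untreated replicate 1 and 11 without untreated replicate 2. For these settings no share over all regions is given. TEAD1 region 1 and YAP1 region 2 were nevertheless listed in siMena11a replicate 1 and siMena replicate 1, and WWTR1 region 3 in siMena11a replicate 1, all transfected libraries. TEAD1 region 6 alone was in no transfected list.

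At the 6 regions listed in all 4 of these libraries the median difference in mean log2 fold was -0.54, and over all 4356 such regions it was -0.42. Among the 6 it became -0.84 when siControl replicate 1 was left out, and -0.22 when siControl replicate 2 was. Both siControl folds were below both untreated folds at 4 of the 6, CYR61 regions 1 and 4 and YAP1 regions 1 and 9, and this held for 29.8% of the 4356. Both were above at 0 of the 6 and at 0.367% of the 4356. CYR61 region 4 fell furthest below, with mean log2 folds of 2.58 ± 0.72 in siControl and 3.24 ± 0.08 in untreated cells (SD, n = 2 each), a difference of -0.65 (two-sided exact permutation p = 0.33, the smallest possible). WWTR1 region 2 differed in sign, with 2.57 ± 0.12 in siControl and 2.47 ± 0.35 in untreated cells, a difference of 0.10 (two-sided exact permutation p = 1.0). After division by the library median YAP1 region 9 alone of the 6 kept both siControl values below both untreated ones, beside 20.7% of all, and the median difference was -0.19. On that scale both siControl values were higher at 0 of the 6, beside 10.3% of all. Within replicate 1 fold was lower with siControl at 16 of 18 shared regions (median log2 ratio -0.22), while 26.9% of all 23212 shared regions were higher with siControl and their median was -0.21. On folds over the library median 7 of the 18 were higher with siControl, and the median was -0.09. Within replicate 2 fold was lower at all 6 shared regions (median -0.84), while 4.55% of all 4574 were higher with siControl and their median was -0.68. On folds over the library median 2 of these 6 were higher with siControl, and the median was -0.27.

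**Figure D4:**
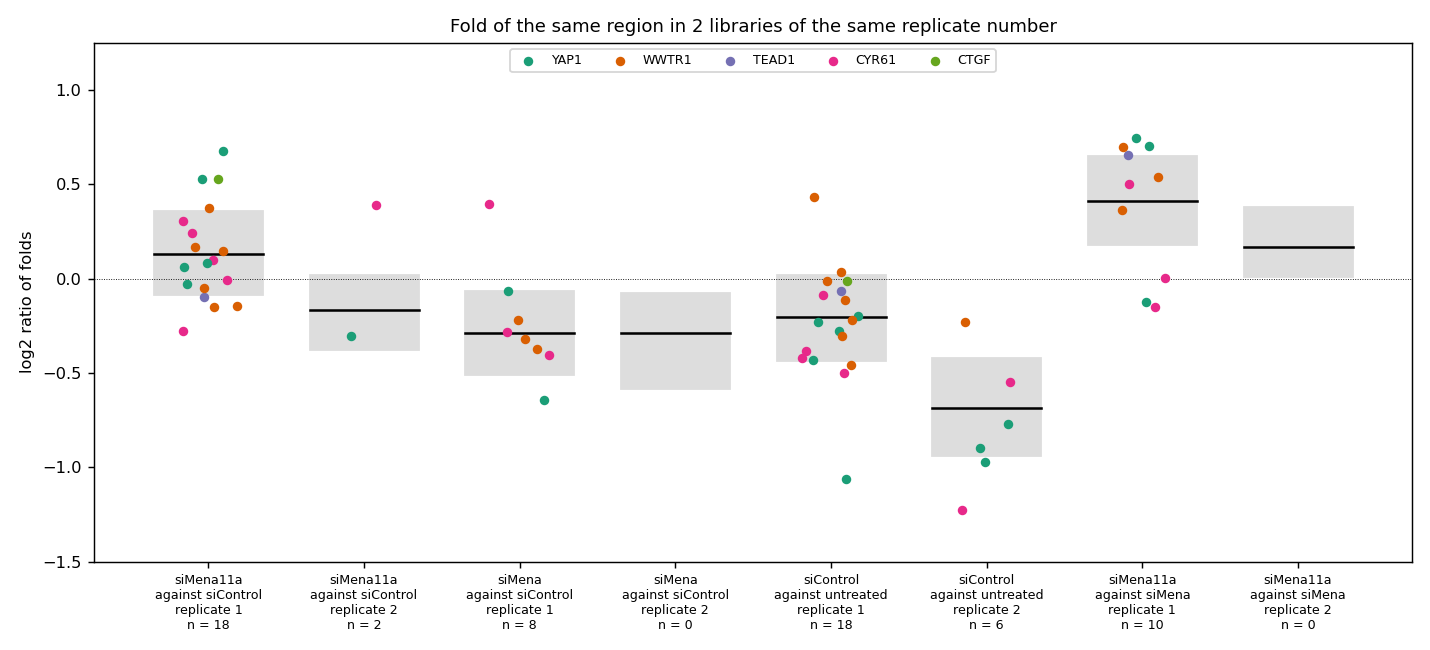
Log2 ratio of folds between 2 libraries of the same replicate number at each region listed in both (points, colours by window), for each comparison and replicate. The black line is the median over all regions shared by the same 2 lists and the grey box their middle 50%, and most points lie around these boxes, with the lowest 2 for siControl against untreated, CYR61 region 4 at -1.22 in replicate 2 and YAP1 region 12 at -1.06 in replicate 1.

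Silencing of the 11a isoform was also set directly against silencing of all hMENA. No region of the windows was gained or lost in siMena11a relative to siMena, beside 0.24% and 0.00643% of all regions. A loss was not possible, since siMena replicate 2 listed 0 of the 41. Only the 2 regions in both siMena11a libraries could be gained, and of 2445 such regions over the genome 4.58% were gained. Without siMena11a replicate 2, 18 regions of the windows were gained, and without siMena replicate 1, 2 were. No share over all regions is given for these settings. In replicate 1 siMena11a listed 18 regions that siMena did not, and siMena listed none that siMena11a did not. Over all regions 21215 were in the siMena11a list only and 500 in the siMena list only. Fold was higher with siMena11a at 8 of the 10 shared regions, with a median log2 ratio of 0.52, beside 88.0% of 13610 shared regions and a median of 0.41. YAP1 region 9 (0.74), YAP1 region 11 (0.70), WWTR1 region 2 (0.70) and TEAD1 region 1 (0.65) had the highest ratios. CYR61 region 2 (-0.15) and YAP1 region 2 (-0.12), both on high local background, were the regions with a lower fold in siMena11a, and CYR61 region 5 had nearly equal folds of 4.82 and 4.81. In replicate 2 siMena11a listed CYR61 region 4 and YAP1 region 9 and siMena listed neither.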

How the data were processed

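Open chromatin was measured by ATAC-seq in 8 libraries, each with a peak list of its own as the deposited file. Per the submitters' processing notes, the tools were MACS2 2.2.5, SAMtools 1.7, Bowtie2 2.3.4.2 and FastQC 0.11.5, with build hg19. Trimming, duplicate removal and the transposase shift are not given in the sources used here. The deposited fold is a ratio made by the authors, summit pileup plus 1 over local background plus 1, the deposited score is 10 times the −log10 q, and the −log10 p and −log10 q values are the authors' own from the peak caller. Lists end at a q of 0.01.

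A library listed a region when any of its peaks shared 1 bp or more with it, and its fold is that of its highest summit there. It was gained if listed in both libraries of the first group and neither of the second, and lost in the opposite case. Pileup in whole tags and local background were recovered from fold and −log10 p with the Poisson formula, within 0.001 for 100% of rows, and the recovery was tested on simulated data. The commonest local background of a list is its genome-wide background. In each window the 4 regions in most lists are named, with ties broken by the percentile of −log10 q, and also each region gained or lost. TEAD1 and CYR61 promoters are not shown. Members and lists were chosen with earlier results of these data known. Other Hippo pathway genes were not analysed here, since no hg19 annotation was used. Software was SciPy 1.17.1, pandas 2.3.3, numpy 2.4.6 and matplotlib 3.10.9, run under Python 3.11.15. Alternatives were a stricter q, lists of equal length, another overlap rule, other scalings of fold, wider merging, left-out libraries and the replicate number as a block.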

Additional observations from a re-analysis of the deposited data

How the results depend on the processing

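The counts of gained and lost regions were small and moved with the lists used. With peaks held to a −log10 q of at least 5, the regions lost with siMena against siControl numbered 0 in place of 2. CYR61 region 1 had a score of 49 in siControl replicate 1, and YAP1 region 1 had 40 in siControl replicate 2. Each left a siControl list and could not be called lost, so for these 2 regions the 0 tests nothing. The count for siControl against untreated stayed at 4, but not with the same regions. YAP1 region 2 dropped out, with a score of 46 in untreated replicate 1. WWTR1 region 5 came in, with scores of 52 and 157 in the untreated libraries and 45 in siControl replicate 1, and siControl replicate 2 did not list it. With the 4 lists shortened to the same length the count for siMena against siControl was 0, and that of siControl against untreated 0 in place of 4. The regions called lost ranked too low in their own lists to be kept, so these zeros test nothing either. When a peak had to span 50% of a region the counts for siMena against siControl and siControl against untreated were 1 and 2. Which regions these were is not given here. Shares over all regions are not given for the stricter q, the equal lengths or this overlap rule either. Leaving out 1 library in turn gave 0 to 10 gained and 0 to 4 lost regions for siMena11a against siControl, 0 to 2 gained and 2 to 14 lost for siMena against siControl, 0 to 4 gained and 4 to 13 lost for siControl against untreated, and 0 to 18 gained and 0 lost for siMena11a against siMena.

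The extremes came without siMena11a replicate 2 (10 and 18 gained), siMena replicate 2 (2 gained) and siControl replicate 2 (4 gained, 14 lost), and without siControl replicate 1 (13 lost). Shares over all regions are not given with a library left out, so these member counts have no genome-wide value beside them. The median log2 difference for siMena11a against siControl, 0.21 over 2 regions, ran from -0.39 (without siMena11a replicate 1) to 0.65 (without siControl replicate 1) and was -0.22 without siControl replicate 2. For siControl against untreated, -0.54 over 6 regions, it ran from -0.84 to -0.22 with 1 library left out, was -0.19 on folds over the library median and -1.30 on tags over the genome-wide background. No median could be computed for the other 2 comparisons, since siMena replicate 2 listed no region. The cause of these shifts was not tested. Merging peaks within 500 bp changed no window's count by over 1.5 times, but gains and losses were not called again on the merged regions. It joins YAP1 regions 1 and 2, which lie 359 bp apart. Region 1 was called lost with siMena, yet siMena replicate 1 listed region 2, at a fold of 4.95. Region 2 was called lost with siControl against untreated, yet both siControl libraries listed region 1, at 5.20 and 3.65. Both calls therefore depend on where the merging splits this stretch.

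With the replicate number as a block the counts were the same by construction (0, 2 and 4 among them), as were the medians of 0.21 and -0.54. Deviations of same-numbered libraries from their group means correlated at 0.27 to 0.69 over the 542 common regions, but the labels give the numbers no shared batch. The replicate 2 files share a prefix in their names, whose meaning is not given. Read depth is not stated, and a region missing from a short list is not shown to be closed.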
